A study of Mus musculus with 14 samples.

Results

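The miR-376 family was followed in plasma extracellular vesicles (EVs) of irradiated mice. Its members were found by name, as every miRNA of the panel whose name starts with mmu-miR-376. This gave 3 of the 599 miRNAs of the panel, namely mmu-miR-376a, mmu-miR-376b and mmu-miR-376c. The family was chosen by the counts of miR-376a, which were much higher in irradiated than in sham samples, so the values of miR-376a against sham are given as a description with no test. The paralogues miR-376b and miR-376c, and the comparison of 9 Gy with 2 Gy, were not the basis of that choice and were tested. The authors had already reported a somewhat larger rise of miR-376a at 9 Gy, so the order of its doses was known beforehand.

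EVs were isolated from female C57BL/6J mice, aged 6 to 8 weeks, that had been exposed to whole-body irradiation (WBIR) from a caesium source at a dose of 2 Gy or 9 Gy. Plasma was taken 3 days after exposure, and sham mice without WBIR served as controls. The sham group held 4 samples and each irradiated group 5, and the labels do not say whether each sample came from a separate mouse. The miRNAs were ligated to a tag, hybridised to color-coded probes of the NanoString nCounter mouse miRNA panel and counted one barcode at a time.

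MicroRNAs are short RNAs cut from hairpin precursors, and they repress messenger RNAs mainly through the seed, bases 2 to 8 from the 5′ end. The miR-376 genes belong to the miR-379/miR-410 cluster, a long run of miRNA hairpins in the imprinted Dlk1-Dio3 region that is transcribed from the maternal chromosome and is known for expression in brain, embryo and placenta. Precursors of this family are known substrates of adenosine-to-inosine editing, which can alter a seed. EVs carry miRNAs through plasma and protect them from degradation.

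The 3 hairpins lie on the plus strand of chromosome 12 within 1131 bp (RefSeq, GRCm38.p6). In order along the chromosome they are Mir376c, Mir376b and Mir376a. Mir654 lies between Mir376c and Mir376b, and 241 bp separate Mir376b from Mir376a. The hairpins are shown to make clear how alike the paralogues are, with the mature arms that the table annotates in capitals.
Mir376c hairpin, chr12:109722718-109722803: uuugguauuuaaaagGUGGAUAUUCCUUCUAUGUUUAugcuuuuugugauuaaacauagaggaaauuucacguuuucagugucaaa
Mir376b hairpin, chr12:109723458-109723539: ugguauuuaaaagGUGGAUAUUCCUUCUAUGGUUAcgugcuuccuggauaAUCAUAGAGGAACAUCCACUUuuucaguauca
Mir376a hairpin, chr12:109723781-109723848: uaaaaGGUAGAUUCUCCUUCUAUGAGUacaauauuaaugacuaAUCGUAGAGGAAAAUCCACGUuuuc

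The mature sequences show where a probe would have to tell the paralogues apart. They are given 5′ to 3′ with the seed in capitals, and mmu-miR-376c-3p is named without a sequence.
mmu-miR-376a-3p: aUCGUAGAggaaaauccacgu
mmu-miR-376b-3p: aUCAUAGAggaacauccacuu
mmu-miR-376a-5p: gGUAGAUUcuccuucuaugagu
mmu-miR-376b-5p: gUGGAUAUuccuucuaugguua
mmu-miR-376c-5p: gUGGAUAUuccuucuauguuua

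On the 3p arm, miR-376a and miR-376b matched at 18 of 21 bases (85.7%). Counting from the 5′ end of miR-376a, the substitutions were G4A, A13C and G20U, of which G4A lies in the seed. The seed of miR-376a-3p was shared by no other of the 1738 mature mouse sequences of the table, and the same was true of the seeds of miR-376b-3p and miR-376a-5p. On the 5p arm, miR-376b and miR-376c shared their seed and 21 of 22 bases (95.5%), and differed only by G19U. The panel's names give no arm for the 3 probes. Of the 566 mouse miRNAs on the panel, 442 were matched to a mature sequence. Among these, miR-376b-3p was 3 edits from miR-376a-3p, and the closest miRNA outside the family, miR-135b, was at 8.

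To determine how each family member behaved after WBIR, the counts as deposited were compared sample by sample. In the 4 sham samples, miR-376a had 31, 20, 19 and 10 counts. At 2 Gy it had 3703, 3008, 1789, 2732 and 2853 counts, and at 9 Gy it had 5547, 4338, 4100, 7320 and 10763 counts. Every irradiated sample was thus far above every sham sample, and the lowest 2 Gy sample exceeded the highest sham sample 57.7-fold, while the lowest 9 Gy sample exceeded it 132-fold. More vesicles with this miRNA and more of it per vesicle cannot be told apart from such counts.

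Over the 4 sham samples the mean count of miR-376a was 20 ± 8.60 (SD). It was 2817 ± 687 over the 5 samples at 2 Gy and 6414 ± 2745 over the 5 at 9 Gy (SD). Scaled counts, which are counts divided by the normalised library size, were 19.5 ± 5.39 in sham, 3135 ± 751 at 2 Gy and 5566 ± 1903 at 9 Gy. The ratio of scaled means over sham was 161 at 2 Gy and 286 at 9 Gy. The sham counts were close to those of the negative controls, and the ratios became 276 and 491 once the median negative control was subtracted. Scaled to the ligation controls, which were lower in sham, they were 18.2 and 35.7. By mean count, miR-376a stood 24th of the 599 miRNAs in sham and ranked 1 at both doses.

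This miRNA also set much of the library totals. It made up 0.209% to 0.448% of all miRNA counts of a sham sample, 22.3% to 35.4% at 2 Gy and 35.3% to 53.4% at 9 Gy. Total miRNA counts were 4781 to 6926 in sham, 8019 to 10455 at 2 Gy and 11518 to 20150 at 9 Gy. With miR-376a left out, these became 4771 to 6895, 5763 to 6752 and 6807 to 9387. The 2 Gy totals then fell inside the sham range, while those at 9 Gy still lay above those at 2 Gy.

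The paralogue miR-376b, encoded next to miR-376a, showed no such difference. The sham samples had 11, 11, 13 and 8 counts, those at 2 Gy 16, 3, 12, 16 and 6, and those at 9 Gy 5, 15, 19, 13 and 20. The sham values lay inside the range of each irradiated group. Its mean count was 10.8 ± 2.06 (SD) over the 4 sham samples, 10.6 ± 5.90 at 2 Gy and 14.4 ± 5.98 at 9 Gy (SD, n = 5 each).

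The other paralogue, miR-376c, whose hairpin opens the trio, likewise overlapped between the groups. It had 23, 13, 23 and 5 counts in sham, 12, 11, 24, 9 and 16 at 2 Gy and 16, 18, 16, 25 and 35 at 9 Gy. Its mean count was 16 ± 8.72 (SD) over the 4 sham samples, 14.4 ± 5.94 at 2 Gy and 22 ± 8.15 at 9 Gy (SD, n = 5 each). Both paralogues therefore stayed at or below 35 counts in all 14 samples.

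**Figure D1:**
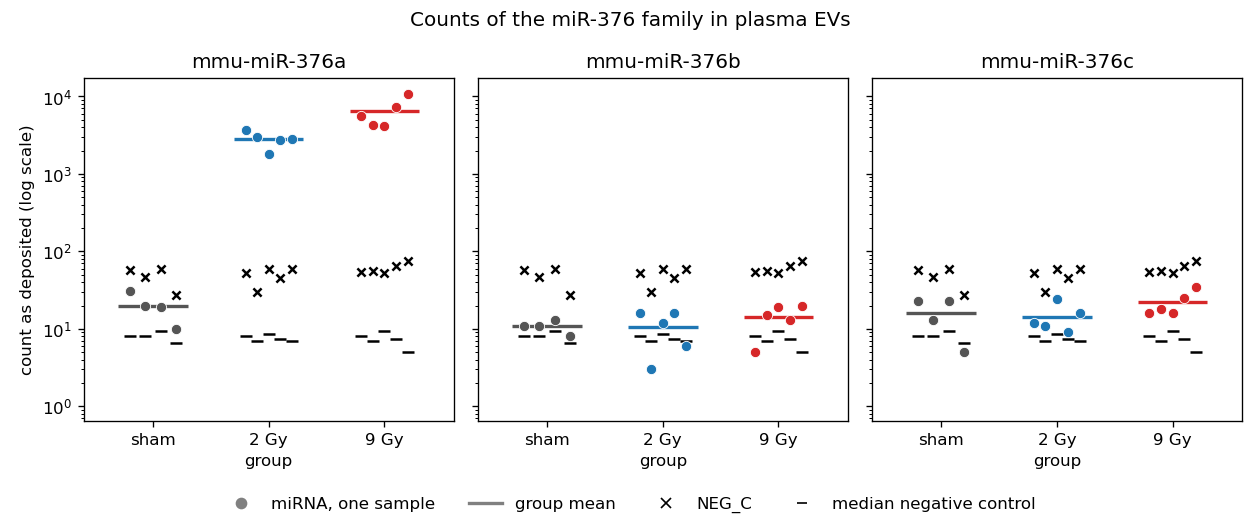
Counts as deposited (log scale) of the 3 miR-376 miRNAs in sham, 2 Gy and 9 Gy samples. Each point is 1 sample and each coloured bar a group mean, crosses mark the negative control NEG_C and short black bars the median negative control of the same sample. The sham points of mmu-miR-376a sit from 10 to 31 and its irradiated points from 1789 to 10763, whereas mmu-miR-376b and mmu-miR-376c stay at or below 35 in every sample.

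The paralogues were then tested with edgeR's quasi-likelihood test among the 176 miRNAs with a mean of at least 10 counts, a minimum that all 3 members met. Of all tested miRNAs, 13.1% passed as higher and 1.7% as lower at 2 Gy, and 15.9% passed as higher and 1.14% as lower at 9 Gy (Benjamini-Hochberg adjusted p under 0.05). Of the 2 paralogues, 0 passed at either dose, and 0 had an unadjusted p under 0.05, which 19.9% of all tested miRNAs had at 2 Gy and 25% at 9 Gy. DESeq2 and limma-voom also called 0. Counts of 11.9% of the tested miRNAs did not overlap between 2 Gy and sham and of 15.9% between 9 Gy and sham, and neither paralogue was among them.

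At 2 Gy the log2 fold change of miR-376b was 0.12 ± 0.33 (SE, edgeR adjusted p 0.903), and its 95% interval ran from a fold of 0.688 to 1.71. At 9 Gy it was 0.22 ± 0.31 (SE, edgeR adjusted p 0.759), with an upper limit of 1.79-fold. For miR-376c the log2 fold change was 0.00 ± 0.30 at 2 Gy (SE, edgeR adjusted p 0.996), with an interval from 0.663-fold to 1.51-fold. At 9 Gy it was 0.27 ± 0.27 (SE, edgeR adjusted p 0.657), with an upper limit of 1.76-fold. The exact two-sided permutation tests of the counts gave p 0.690 and 0.524 for miR-376b and p 0.992 and 0.294 for miR-376c, at 2 Gy and 9 Gy. The comparisons at both doses share the same sham samples. The intervals hold no fold near the ratios of miR-376a, but these counts lie close to background, where a fold is understated.

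The counts of the members can also be set side by side within a sample, where they share 1 library. The ratio of miR-376a to miR-376b was 1.25 to 2.82 in sham, 149 to 1003 at 2 Gy and 216 to 1109 at 9 Gy. The ratio of miR-376a to miR-376c was 0.826 to 2 in sham, 74.5 to 309 at 2 Gy and 241 to 347 at 9 Gy. These ratios are a description, since they follow the miR-376a counts that chose the family and divide by paralogue counts near background. Since probes can differ in efficiency, they compare counts of probes and not numbers of molecules.

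Negative controls, probes with no target in the sample, show the count that a probe gives without its miRNA. The median of the 8 negative controls ran from 5 to 9.5 counts over all samples. The control NEG_C stood apart from the rest, at 27 to 60 counts in sham, 30 to 59 at 2 Gy and 52 to 76 at 9 Gy. Against the highest negative control of the same sample, NEG_C included, miR-376a was above the limit in 0 of 4 sham samples, 5 of 5 at 2 Gy and 5 of 5 at 9 Gy. The paralogues were above it in 0 of 14 samples each.

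With NEG_C left out of the limit, the picture at the low end changed. The sham counts of miR-376a then exceeded the highest negative control in 3 of 4 samples. miR-376b exceeded it in 0 of 4 sham samples, 3 of 5 at 2 Gy and 3 of 5 at 9 Gy. miR-376c exceeded it in 2 of 4, 3 of 5 and 5 of 5 samples. The sham level of miR-376a and all levels of the paralogues were therefore close to background. Apart from miR-376b in sham, which exceeded neither limit in any sample, whether they count as detected depended on NEG_C. Beside the median negative control, miR-376a stood 1.54-fold to 3.88-fold higher in sham, 210-fold to 463-fold at 2 Gy and 432-fold to 2153-fold at 9 Gy.

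The ligation positive controls are spiked templates through which the tagging step can be followed. Their geometric mean was 136 to 634 counts in sham, 1935 to 3121 at 2 Gy and 2231 to 3463 at 9 Gy, with no overlap between sham and irradiated samples. The ratio of geometric means over sham was 7.88 at 2 Gy and 8.98 at 9 Gy (two-sided p 0.00794 at each dose by an exact permutation test, the lowest that 4 against 5 samples allow). Ligation yield and the sham group cannot be told apart in any comparison with sham. The hybridisation positive controls, which skip ligation, were at 0.926 and 0.989 times their sham level (exact permutation p 0.333 and 0.810).

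Per ligation control count, miR-376a remained higher in every irradiated sample. The ratio of its count to the ligation mean was 0.0474 to 0.0964 in sham, 0.895 to 1.47 at 2 Gy and 1.70 to 3.13 at 9 Gy. The fold of this ratio over sham was 18.8 at 2 Gy and 36.1 at 9 Gy. After the median negative control had been subtracted from both counts, the folds were 34.5 and 66.2. They depend on the control used, since LIG_POS_A, LIG_POS_B and LIG_POS_C differed unequally from sham. Their own ratios over sham were 5.89, 8.22 and 10.1 at 2 Gy and 6.88, 9.17 and 11.5 at 9 Gy. The groups do not overlap on this scale, and the ratio to sham is smaller than that of the counts by the rise of the ligation controls.

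The paralogues gave the opposite direction on the same scale, because their counts stayed level while the ligation controls were higher. For miR-376b the fold of the ratio over sham was 0.106 at 2 Gy and 0.137 at 9 Gy, and for miR-376c it was 0.126 and 0.171. These folds carry the difference of the ligation controls themselves, and with ligation control scaling 167 and 165 of the 176 tested miRNAs passed as lower at 2 Gy and 9 Gy. Scaled to the ligation controls, the median of all tested miRNAs moved by -3.01 at 2 Gy and -2.92 at 9 Gy on the log2 scale. Relative to that median, miR-376b was at 0.05 and 0.22, miR-376c at 0.12 and 0.38 and miR-376a at 7.25 and 8.13, in the order 2 Gy and 9 Gy. On this relative scale the paralogues lay near the other miRNAs of the panel.

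**Figure D2:**
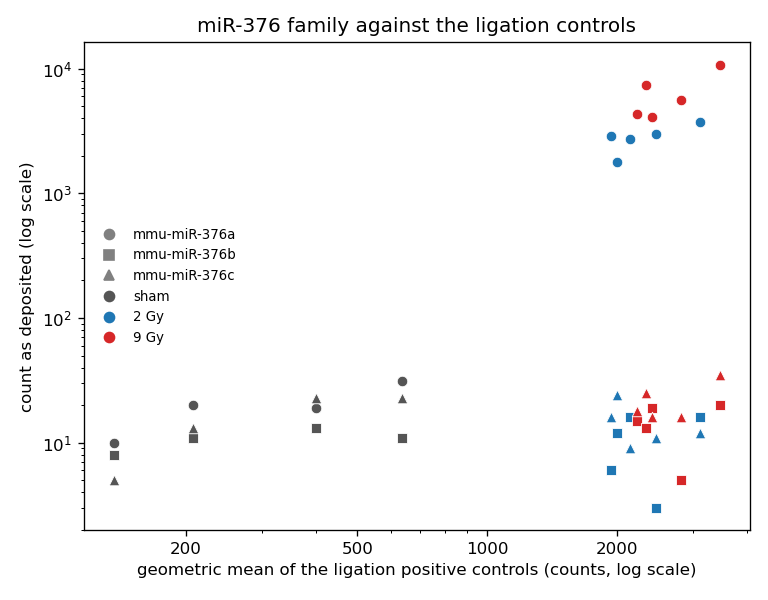
Counts as deposited of the miR-376 family (log scale) against the geometric mean of the 3 ligation positive controls in the same sample (log scale). Each marker is 1 miRNA in 1 sample, with shape for the miRNA and colour for the group. Sham samples lie below 634 on the ligation axis and irradiated samples above 1935, and within the irradiated samples mmu-miR-376a lies above both paralogues at every ligation level.

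To determine whether the family differed between doses, 9 Gy was compared with 2 Gy, where the geometric means of the ligation controls stood at 1.14 to 1 (exact permutation p 0.294). The counts of miR-376a did not overlap between the doses, since the lowest 9 Gy sample had 4100 and the highest 2 Gy sample 3703. The exact two-sided permutation p of the counts was 0.00794. Counts of 5.68% of the tested miRNAs were without overlap in this comparison. Scaled counts of miR-376a did overlap, with the lowest 9 Gy sample at 3724 and the highest 2 Gy sample at 3837.

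The log2 fold change of miR-376a between the doses was 0.83 ± 0.25 (SE), with a 95% interval of 0.27 to 1.39, and the edgeR adjusted p was 0.125 (unadjusted p 0.00738). It therefore did not pass, and 0% of the 176 miRNAs passed by edgeR in this comparison. An unadjusted p under 0.05 was found for 20 of them (11.4%), and DESeq2 and limma-voom called 1 each. The adjusted p of miR-376a depended on the scaling and the tool, and was 0.0410 with total count scaling, 0.0150 with hybridisation control scaling and 0.0440 with limma-voom. With hybridisation control scaling the median log2 fold change of all tested miRNAs was 0.27 and 12 of the 176 passed, all higher, whereas with total count scaling it was -0.28 and 1 passed as higher and 6 as lower. Over 28 alternatives it ran from 0.0150 to 0.422.

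Per ligation control count, miR-376a was 1.92-fold higher at 9 Gy than at 2 Gy, and the ratios of all 5 samples at 9 Gy lay above those at 2 Gy (exact permutation test, two-sided p 0.00794). On this scale 6.25% of the tested miRNAs did not overlap between the doses. In the edgeR fit scaled to the ligation controls, miR-376a did not pass between the doses (adjusted p 0.0668), nor did any other of the 176 miRNAs. With LIG_POS_A, LIG_POS_B or LIG_POS_C alone the fold was 1.87, 1.96 or 1.93. The paralogues did not pass between the doses. The log2 fold change was 0.11 ± 0.29 for miR-376b (SE, edgeR adjusted p 0.972) and 0.27 ± 0.26 for miR-376c (SE, edgeR adjusted p 0.759). Their exact permutation p-values on counts were 0.341 and 0.111. Their folds per ligation control count were 1.28 and 1.36 (exact permutation p 0.548 and 0.254).

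The family was next set in the miR-379/miR-410 cluster, the run of hairpins that includes Mir376a. The panel held 44 miRNAs of the cluster, 41 of them outside the family, and 11 of the 41 were tested. At 2 Gy, 2 of the 11 were higher than sham and 1 was lower, beside 13.1% and 1.7% of all tested miRNAs. At 9 Gy, 2 were higher and 0 lower, beside 15.9% and 1.14%. Unadjusted p under 0.05 was found for 3 higher and 1 lower of the 11 at 2 Gy, beside 19.9% of all tested miRNAs, and for 3 higher and 0 lower at 9 Gy, beside 25%. At 9 Gy DESeq2 and limma-voom called 0 lower as well. The median log2 fold change of the 11 was 0.02 at 2 Gy and 0.15 at 9 Gy, and that of all tested miRNAs was 0.05 and 0.01.

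Those that rose at both doses were miR-539 and miR-377. For miR-539, encoded 4.35 kb after Mir376a, counts were 8 to 14 in sham, 57 to 76 at 2 Gy and 79 to 159 at 9 Gy. Its log2 fold change was 2.69 ± 0.24 at 2 Gy (SE, edgeR adjusted p 2.36e-15) and 3.04 ± 0.24 at 9 Gy. For miR-377, 16.7 kb after Mir376a, counts were 8 to 12 in sham, 41 to 110 at 2 Gy and 52 to 88 at 9 Gy. Its log2 fold change was 2.65 ± 0.26 at 2 Gy (SE, edgeR adjusted p 9.06e-14) and 2.56 ± 0.26 at 9 Gy. Both started from sham counts near the negative controls, and with ligation control scaling neither passed at either dose.

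The member that was lower at 2 Gy was miR-668. It had 9 to 16 counts in sham, 2 to 7 at 2 Gy and 9 to 18 at 9 Gy, and its log2 fold change at 2 Gy was -1.14 ± 0.35 (SE, edgeR adjusted p 0.0164). Its mean count lay just above the minimum for testing. The call was lost without 2 Gy replicate 4, sham replicate 1 or 3, or 9 Gy replicate 2, 3, 4 or 5, in some of these because it then fell under the minimum, and it was lost with limma-voom.

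The miRNAs of Mir654, within the run of family hairpins, and of Mir300, next to it, stayed at background counts. miR-654-3p, whose hairpin lies between Mir376c and Mir376b, had mean counts of 10.8 in sham, 5.8 at 2 Gy and 7.8 at 9 Gy. miR-654-5p had 2.75, 3 and 3.6, and miR-300, the next hairpin after Mir376a, had 5.5, 5.6 and 7. All 3 were under the count minimum and were not tested. Along the cluster, the high counts of miR-376a thus stood between neighbours at the level of the negative controls. Between the doses, 0 of the 11 cluster miRNAs passed by edgeR, DESeq2 or limma-voom, and 1 was higher at an unadjusted p under 0.05, beside 11.4% of all tested miRNAs.

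**Figure D3:**
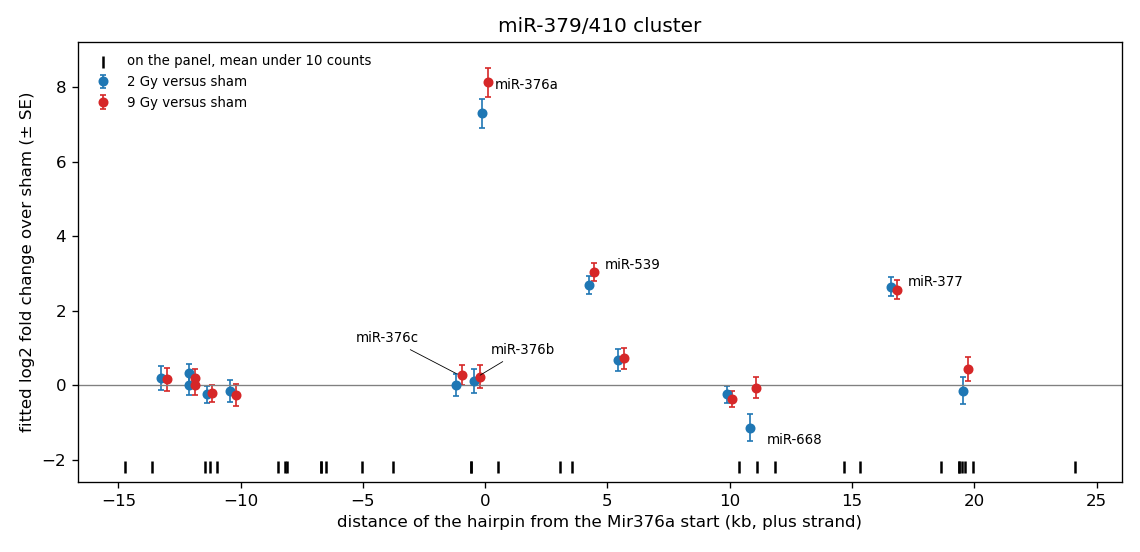
Fitted log2 fold change over sham (± SE) of the tested miR-379/miR-410 cluster miRNAs against the distance of their hairpin from the Mir376a start in kb. Points are 2 Gy (blue) and 9 Gy (red), drawn slightly apart, and black ticks mark panel miRNAs of the cluster under 10 mean counts. The points of miR-376a lie at 7.30 and 8.13, those of miR-539 and miR-377 between 2.56 and 3.04, and those of miR-376b and miR-376c near 0.

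Over the 14 samples, the miRNAs whose log2 scaled counts were most like those of miR-376a were miR-136 (Pearson r 0.992), miR-539 (0.978), miR-2183 (0.977), miR-297c (0.976) and miR-377 (0.971). The ligation control mean had an r of 0.963 with miR-376a over the same samples. Among 175 other tested miRNAs, miR-376c stood 50th (r 0.28) and miR-376b 94th (r -0.02). These values are descriptions, and they mostly carry the difference between sham and irradiated samples.

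Within the 10 irradiated samples, with the mean of each dose removed, the order changed. The most alike were then miR-539 (r 0.912), the viral miRNA mcmv-miR-M23-2 (0.815), miR-493 (0.80), miR-450b-5p (0.774) and miR-2183 (0.759), and the ligation control mean had an r of 0.642. The paralogues had an r of -0.00 for miR-376c and -0.20 for miR-376b. Low counts limit these values, since the mean counts at 2 Gy and 9 Gy were 14.4 and 22 for miR-376c, 10.6 and 14.4 for miR-376b, 10.8 and 15.6 for mcmv-miR-M23-2 and 8.2 and 10.8 for miR-493. All these measures come from the same libraries and share their depth.

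The panel has no marker of vesicles, so the labelled source could be checked only against miRNAs of blood cells. The summed counts of 4 miRNAs of red cells (miR-451, miR-144, miR-486 and miR-16) were 43 to 99 in sham, 45 to 350 at 2 Gy and 49 to 219 at 9 Gy. For platelets (both arms of miR-126, and miR-223) the sums were 12 to 21, 13 to 32 and 20 to 37. For a list taken for lymphocytes (both arms of miR-142, miR-150 and miR-155) they were 864 to 1049, 499 to 659 and 577 to 1009. Whether this list is particular to lymphocytes was not tested. The red cell sums overlapped between all groups, although miR-16 passed as higher at 2 Gy, with a log2 fold change of 1.81 (edgeR adjusted p 0.00459) and mean counts of 14.3 in sham and 45 at 2 Gy. Its sham counts were close to background. With ligation control scaling the median log2 fold change of all tested miRNAs at 2 Gy was -3.01, a shift larger than this rise. The sum of the lymphocyte list was lower at 2 Gy than in every sham sample. Apart from miR-155 in some 9 Gy samples, it was nearly all miR-142-5p and so mainly follows that miRNA. The mean count of miR-142-5p was 951 in sham, 565 at 2 Gy and 646 at 9 Gy. miR-142-5p passed as lower at both doses, with log2 fold changes of -0.63 and -0.77 (edgeR adjusted p 3.35e-08 and 8.34e-11). Both calls depended on the processing. When the fit also included the ligation controls, 0 of the 176 miRNAs passed as lower for either dose. The 9 Gy call was also lost under hybridisation control scaling and after negative control subtraction, where again 0 were lower. For 2 Gy, 3 miRNAs passed as lower under each of these. miR-150 had mean counts of 11, 10.8 and 11.8. miR-155 had 44, 1, 1, 14 and 307 counts at 9 Gy and 1 count in every other sample. It met the minimum mean count only through the 9 Gy samples. Its call as higher there (edgeR adjusted p 0.0474) is therefore a description and not a test. Against the mean plus 2 SD of the negative controls other than NEG_C, the mean counts of 1, 3 and 2 of the 4 red cell miRNAs were above background in sham, at 2 Gy and at 9 Gy. For platelets this held for 0, 1 and 0 of 3, and for the lymphocyte list for 1, 1 and 2 of 4. The part of blood cell miRNAs in the level of miR-376a was not tested.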

How the data were processed

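The deposited values were counts per probe of the nCounter mouse miRNA panel. The authors disrupted the EV pellets, isolated RNA, put 100 ng into the assay and used nSolver 4.0 for their own normalisation. No control scaling or background subtraction had been applied to these counts, as the control probes show. Their smallest value was 1, which 362 values had, and the sources used here do not say whether a count of 0 was written as 1. Members and lists were chosen with earlier results of these data known.

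The counts of 599 miRNAs in 14 samples were normalised with TMM factors in edgeR 4.0.16 (R 4.3.3). miRNAs with a mean of at least 10 counts were kept (176) and fitted with the quasi-likelihood model (robust, 3 groups in 1 fit). Benjamini-Hochberg adjustment ran over these 176, with a threshold of 0.05. Single values were compared with exact two-sided permutation tests of log2 values. Since nothing says that samples came from separate animals, p-values measure only the spread between these samples, which may be technical. No library appeared to be deposited more than once within a group. The counts of each of the 26 within-group pairs differed beyond sampling noise (chi-square test over probes with a summed count of at least 10). Pairs across groups were not checked.

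Named miRNAs were the family, the 5 most correlated with miR-376a over all samples and within the irradiated samples, the closest mature sequences, cluster members past the threshold and the controls. The miRNAs of the neighbouring hairpins Mir654 and Mir300 and those of the blood cell lists were named as well. Alternatives were DESeq2 1.42.0 and its size factors, limma-voom (limma 3.58.1), scaling to totals, to the 100 highest miRNAs or to controls, TMM without miR-376a, ligation controls as a covariate, negative control subtraction, a mean of at least 30 counts, no filter, 2 groups per fit, a replicate block and each sample left out. Sequences and loci came from RefSeq tables of GRCm38.p6. Figures were drawn with matplotlib 3.10.9.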

Additional observations from a re-analysis of the deposited data

How the results depend on the processing

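The counts of miR-376a above sham kept their direction under every alternative run. Its ratio over sham at 2 Gy and 9 Gy was 96.1 and 136 with total count scaling, 18.2 and 35.7 with ligation control scaling, 119 and 201 with scaling to the 100 highest miRNAs and 276 and 491 after subtraction of the median negative control, and leaving out each sample gave 146 to 183 and 251 to 325. With the ligation control covariate its log2 fold change was 5.57 and 6.28, against 7.30 and 8.13. Of the 2 paralogues, 1 passed at 2 Gy and 2 at 9 Gy as lower with total count scaling, and 2 at each dose with ligation control scaling. Of all 176 tested miRNAs, 94 and 130 were lower with total count scaling, 167 and 165 with ligation control scaling and 34 and 54 with scaling to the 100 highest, at 2 Gy and 9 Gy. These scalings moved the median log2 fold change of all tested miRNAs by -0.66 and -1.02 (total), -3.01 and -2.92 (ligation) and -0.37 and -0.48 (100 highest). The sign of miR-376b turned at 2 Gy to -0.60 (total), -2.96 (ligation), -0.30 (100 highest), -0.010 (limma-voom) and -0.043 (ligation covariate), at 9 Gy to -0.81, -2.70 and -0.26 with the first 3, and between doses to -0.21 (total). That of miR-376c turned at 2 Gy to -0.69, -2.89 and -0.41 with the same 3, -0.0024 (DESeq2 size factors), -0.044 (hybridisation control scaling), -0.0089 (2 groups per fit), -0.30 (negative control mean subtracted) and -1.39 (covariate), at 9 Gy to -0.77, -2.54, -0.21 and -1.22 (covariate), and between doses to -0.078 (total). The causes were not tested. Leaving out each sample gave log2 values from -0.10 to 0.32 and 0.09 to 0.38 for miR-376b, from -0.25 to 0.23 and 0.07 to 0.51 for miR-376c (2 Gy and 9 Gy), and from -0.10 to 0.32 and 0.10 to 0.53 between doses. For 9 Gy versus 2 Gy, 1 family member, miR-376a, passed with total count scaling, hybridisation control scaling and limma-voom, where 1, 12 and 1 of all 176 passed as higher. Samples above the negative control limit were 6 and 5 for miR-376b and 10 and 10 for miR-376c once NEG_C was left out of the highest control or of the mean plus 2 SD. Higher cluster miRNAs numbered 0 at each dose with ligation control scaling and 1 at each with the covariate, beside 2 and 3 of all 176 at each dose, and 1 between doses with hybridisation control scaling or without 2 Gy replicate 2 (0 to 1 over samples left out). Lower ones at 2 Gy numbered 6 (total), 9 (ligation) and 3 (100 highest), 0 with a mean of at least 30 counts, 2 groups per fit, limma-voom or the covariate, and 0 to 1 with samples left out, and at 9 Gy 7, 9 and 3, beside the panel counts given above for these scalings. With a mean of at least 30 counts the paralogues were not tested. Replicate numbers did not pair the samples (r -0.08 to 0.18 over 13 same-numbered pairs). With the replicate block, 0 paralogues passed at either dose, 0 family members passed between doses (3 of all 176 miRNAs, against 0 without it), and miR-376c at 2 Gy was at -0.10 on the log2 scale. Counts of at most 35 in every sample limit the precision of the paralogues.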
